A study of Mus musculus with 8 samples.

Results

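This account covers 10 genes at which TGF-beta and BMP signalling feed back on themselves or are read out directly, in newborn mouse skin fibroblasts transfected with a microRNA mimic. They were taken by gene symbol, through the accession of each array probe, from a table that names 21368 genes on the array. The 10 genes have 12 of the 55681 probes, and all 10 were bright enough to be tested among 17093 genes (the word covers every feature tested, named or not). The set holds 6 genes grouped here as TGF-beta feedback genes (Smad7, Skil, Ski, Pmepa1, Tgif1 and Bhlhe40) and 4 grouped as BMP feedback and Id genes (Smad6, Id1, Id2 and Id3). The cells were dermal cells of newborn C57BL/6 mice, freed from skin with dispase and collagenase and kept in culture medium with calf serum. One group received control oligonucleotides (samples 1, 3, 6 and 8) and the other a mimic of miR-127-3p (samples 2, 4, 5 and 7), so n = 4 per group throughout. A mimic is a short synthetic RNA that stands in for the mature microRNA. The labels give no time after transfection, no dose and no number of animals. They do not say that the samples came from separate cultures, so p-values measure only the spread between these samples.

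TGF-beta ligands bind paired receptor kinases that phosphorylate SMAD2 and SMAD3, and BMP ligands bind related receptors that phosphorylate SMAD1, SMAD5 and SMAD9. Each receptor SMAD joins SMAD4 and acts on genes in the nucleus. Many of the first genes switched on are brakes: the inhibitory SMADs, SMAD7 and SMAD6, act at the receptors, the SKI and SKIL proteins hold SMAD complexes in a repressed state, and PMEPA1 keeps SMADs from the TGF-beta receptor. The Id proteins are small helix-loop-helix proteins without a DNA-binding region that trap E proteins, and their genes are classic direct targets of BMP signalling. In dermis, TGF-beta is best known for driving fibroblasts towards the contractile, matrix-making myofibroblast.

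The microRNA that the mimic stands for is shown because it is the agent that separates the groups. Capitals mark its seed, bases 2 to 8, the stretch that pairs with messenger RNAs. The sequence is RefSeq's, from the plus strand of chr12:109592888-109592909 (GRCm38.p6).
mmu-miR-127-3p: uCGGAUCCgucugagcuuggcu
Start site windows were used for 5 of the 10 genes (Ski, Tgif1, Smad6, Id2 and Id3) and not for Smad7, Skil, Pmepa1, Bhlhe40 or Id1. The search for windows of the 10 genes left out a chromosome, which the counts over all windows did not. Any window of a member on that chromosome would have been dropped. No motif was searched for at Smad7, Skil, Pmepa1, Bhlhe40 or Id1, so the matches below say nothing about those genes. Each RefSeq window runs from 250 bases before a transcript's start to 50 after it. Tgif1 has 5 such windows, which makes 9 windows in all. Those of Smad6, Id2 and Id3 are printed 5′ to 3′ up to base 20 of the transcript, as BMP-driven genes measured together below. Capitals mark matches to the motifs GTCTAGAC (a palindromic SMAD element), CAGACA (a SMAD box with its flank), GGCGCC (a GC-rich element of BMP SMADs) and CACGTG (the E-box that BHLHE40 prefers), searched on both strands. The windows lie on the minus strand at chr9:64022040-64022309 for Smad6 and chr12:25096073-25096342 for Id2, and on the plus strand at chr4:136143572-136143841 for Id3 (GRCm38.p6).
Smad6: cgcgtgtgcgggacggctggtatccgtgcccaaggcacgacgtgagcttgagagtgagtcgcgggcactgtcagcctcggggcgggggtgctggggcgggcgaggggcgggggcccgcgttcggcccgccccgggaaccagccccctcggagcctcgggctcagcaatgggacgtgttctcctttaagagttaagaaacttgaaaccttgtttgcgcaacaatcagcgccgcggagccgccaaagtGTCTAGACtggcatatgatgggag
Id2: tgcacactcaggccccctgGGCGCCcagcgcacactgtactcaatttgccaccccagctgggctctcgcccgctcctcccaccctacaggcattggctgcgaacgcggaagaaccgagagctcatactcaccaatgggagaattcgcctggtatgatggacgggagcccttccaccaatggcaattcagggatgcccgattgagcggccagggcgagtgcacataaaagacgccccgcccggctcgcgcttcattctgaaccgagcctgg
Id3: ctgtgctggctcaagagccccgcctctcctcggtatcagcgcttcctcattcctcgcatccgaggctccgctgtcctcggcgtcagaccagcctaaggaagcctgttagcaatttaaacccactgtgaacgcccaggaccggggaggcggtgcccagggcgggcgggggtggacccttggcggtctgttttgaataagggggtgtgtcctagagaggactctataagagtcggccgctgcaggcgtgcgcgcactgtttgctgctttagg
The Smad6 window holds the palindrome GTCTAGAC, beginning 4 bases before the start site. Of all 32851 windows of this length in the table, 70 hold that palindrome (0.213%). The Id2 window holds GGCGCC, its first base at position -231 from the start, as does the Ski window at position -220, and 11.9% of all windows hold it. The share of G and C was 66.3% in the Smad6 window, 63.3% in the Id2 window and 60.0% in the Id3 window, against a median of 52.7% over all windows. CAGACA was found in 2 of the 5 Tgif1 windows, against 21.0% of all windows. None of the 9 windows holds CACGTG, which 7.15% of all windows do, and the Id3 window holds none of these 4 motifs. The broader E-box CANNTG, of which CACGTG is one form, is not marked; it occurs in the Smad6 and Id2 windows, in 4 of the 5 Tgif1 windows and in 72.3% of all windows. A match is a description of the letters alone, as no binding was measured.

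The comparison asked which of these brakes and readouts differed between mimic and control. With the mimic, 3 of the 6 TGF-beta feedback genes (Pmepa1, Smad7 and Skil) rose and 1 (Ski) fell, while 3 of the 4 BMP feedback and Id genes (Id1, Id2 and Id3) rose and none fell. A gene is said to have risen or fallen when its adjusted p in limma was under 0.05 over all 17093 genes. By that measure 34.2% of all genes differed, 15.9% higher and 18.3% lower with the mimic. The same 6 of the 10 genes that rose had groups that did not overlap, as did 34.2% of all genes (15.1% with the mimic higher and 19.0% with it lower). The members were chosen with earlier results of these data known, so these counts are a description. In bulk RNA, fewer or more cells of a type and less or more RNA per cell cannot be told apart. The median log2 fold change (mimic minus control) was 0.33 over the TGF-beta feedback genes and 0.50 over the BMP feedback and Id genes, against 0.02 over all genes. The rises ran from 0.33 (Id3) to 1.14 (Pmepa1) on the log2 scale, or 1.26-fold to 2.21-fold.

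**Figure D1:**
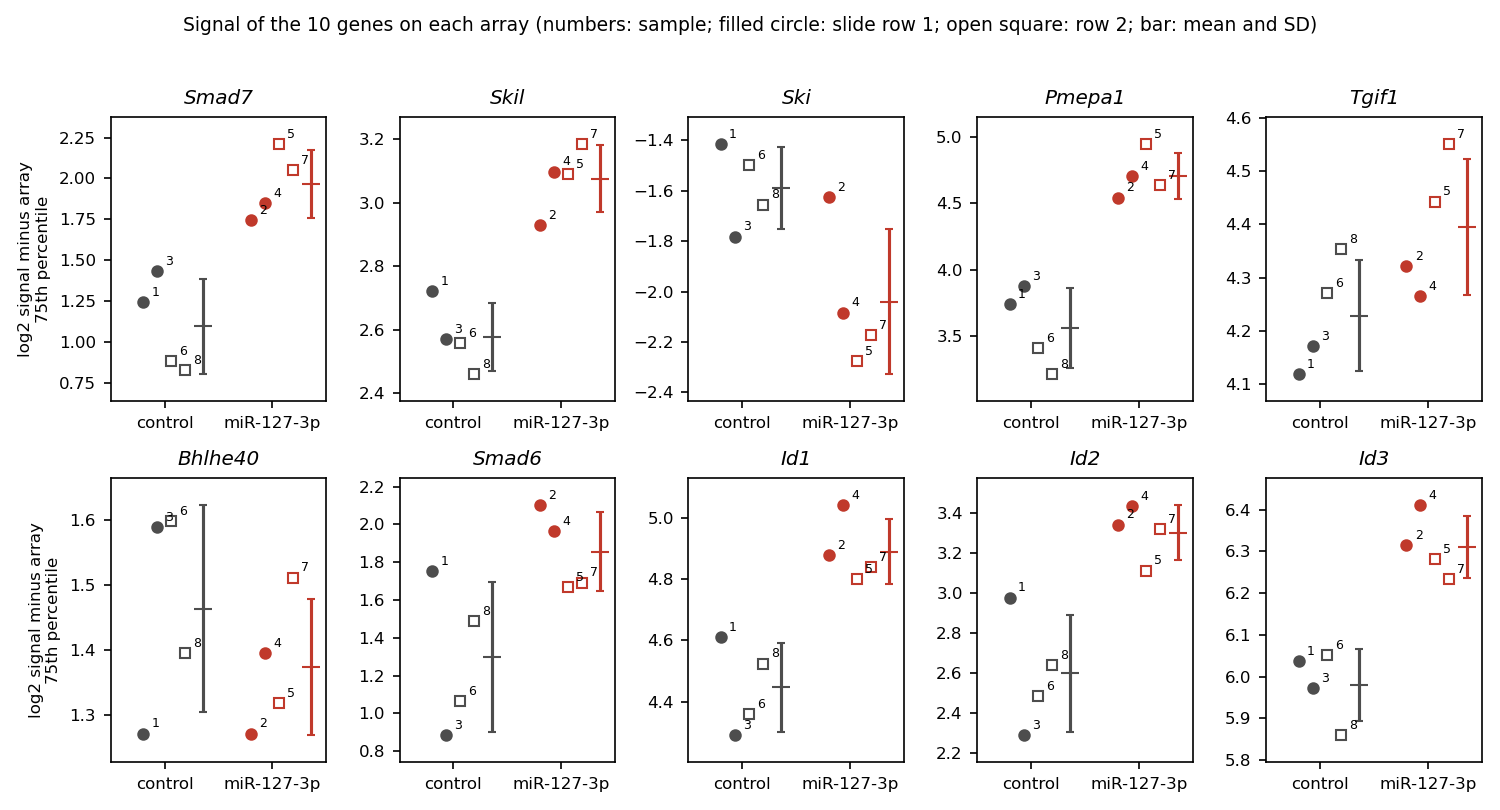
Log2 signal of each gene on each array, relative to that array's 75th percentile (y axes differ between panels), with the sample number beside each point, filled circles for slide row 1, open squares for slide row 2, and the mean and SD of each group to its right. The groups are apart for Smad7, Skil, Pmepa1, Id1, Id2 and Id3 and overlap for Ski, Tgif1, Bhlhe40 and Smad6.

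Pmepa1, which encodes a membrane protein that sequesters receptor SMADs, showed the largest difference of the set. Its log2 levels, relative to the 75th percentile of each array as are all levels here, were 3.74, 3.87, 3.41 and 3.22 in controls 1, 3, 6 and 8 and 4.54, 4.70, 4.94 and 4.63 in mimic samples 2, 4, 5 and 7. Every mimic sample lay above every control, and the lowest were the controls of slide row 2. The log2 fold change was 1.14 (SE 0.16, adjusted p = 0.000974), or 2.21-fold. The other probe of Pmepa1 gave 1.18 (SE 0.16, adjusted p = 0.000980) with the samples in nearly the same places, control 3 highest among controls and mimic sample 5 highest of all. Pmepa1 passed the test under each of the 21 alternative settings, with a lowest value of 0.81 within slide row 1.

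Smad7 encodes the inhibitory SMAD that brings ubiquitin ligases to the TGF-beta receptor. Its log2 levels were 1.24, 1.43, 0.88 and 0.83 in controls 1, 3, 6 and 8 and 1.74, 1.85, 2.21 and 2.05 in mimic samples 2, 4, 5 and 7. The groups did not overlap. The log2 fold change was 0.87 (SE 0.16, adjusted p = 0.00417), or 1.82-fold. It was 0.46 within slide row 1 (samples 1 to 4), where it did not pass (adjusted p = 0.121, 2 arrays per group), and 1.28 within slide row 2 (samples 5 to 8).

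Skil encodes SnoN, a corepressor that SMAD signalling both destroys as a protein and induces as a gene. One of its probes was printed in 10 copies on each array, of which 8 to 10 were used. The copies had an SD of 0.05 to 0.07 within an array on the log2 scale, smaller than the SD of 0.11 between samples in either group. The averaged log2 levels were 2.72, 2.57, 2.56 and 2.46 in controls 1, 3, 6 and 8 and 2.93, 3.10, 3.09 and 3.18 in mimic samples 2, 4, 5 and 7, again without overlap. Skil rose by 0.50 (SE 0.09, adjusted p = 0.00346), or 1.41-fold. Its other, dimmer probe gave 0.72 (SE 0.13, adjusted p = 0.00350), also with every mimic sample above every control.

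Ski, the relative of Skil and the other corepressor of the set, was near the floor of the assay. Its log2 levels were -1.42, -1.78, -1.50 and -1.65 in controls 1, 3, 6 and 8 and -1.63, -2.08, -2.28 and -2.17 in mimic samples 2, 4, 5 and 7. The groups overlapped through mimic sample 2, and 4 of 4 control arrays but 1 of 4 mimic arrays had a signal well above background. The log2 fold change was -0.45 (SE 0.15) and just passed (adjusted p = 0.0486). The call was lost in 13 of 20 alternatives, among them the removal of control 1, 6 or 8 or of mimic sample 4, 5 or 7 (adjusted p = 0.0800 to 0.120) and normexp background correction, which gave -0.10 (adjusted p = 0.510). Both the signal of Ski and its call thus lay at the edge of what the arrays resolved.

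Tgif1 and Bhlhe40 did not pass the test. Tgif1 encodes a homeodomain repressor that joins SMAD2 complexes; its log2 fold change was 0.17 (SE 0.09, adjusted p = 0.201), with a 95% interval of -0.05 to 0.38. Its log2 levels ran from 4.12 to 4.35 in controls and from 4.27 to 4.55 with the mimic. Bhlhe40 encodes a helix-loop-helix repressor that responds to TGF-beta, hypoxia and the circadian clock. Its log2 levels ran from 1.27 to 1.60 in controls and from 1.27 to 1.51 with the mimic, with a log2 fold change of -0.09 and a 95% interval of -0.32 to 0.14 (SE 0.10, adjusted p = 0.531). The upper ends of both intervals lie below the lower ends of the 95% intervals of Smad7 (0.50) and Pmepa1 (0.78). The upper end of Tgif1 lies above the lower ends of Skil (0.29), Id1 (0.22), Id2 (0.37) and Id3 (0.15). Whether Tgif1 or Bhlhe40 differed from those genes was not tested.

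Id1, Id2 and Id3 each rose. Id1 had log2 levels of 4.61, 4.29, 4.36 and 4.52 in controls 1, 3, 6 and 8 and of 4.88, 5.04, 4.80 and 4.84 in mimic samples 2, 4, 5 and 7. Its log2 fold change was 0.44 (SE 0.10, adjusted p = 0.00918), or 1.36-fold. The nearest samples of the 2 groups, control 1 and mimic sample 5, were 4.61 and 4.80.

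Id2 had log2 levels of 2.98, 2.29, 2.48 and 2.64 in controls 1, 3, 6 and 8 and of 3.34, 3.43, 3.11 and 3.32 in mimic samples 2, 4, 5 and 7. Control 1 came close to the mimic samples without reaching them. The log2 fold change was 0.70 (SE 0.15, adjusted p = 0.00725), or 1.63-fold, the largest of the 3 Id genes in the set. Id3 had log2 levels of 6.04, 5.97, 6.05 and 5.86 in controls 1, 3, 6 and 8 and of 6.31, 6.41, 6.28 and 6.23 in mimic samples 2, 4, 5 and 7. Its fold change was the smallest that passed, 0.33 on the log2 scale (SE 0.08, adjusted p = 0.0130), or 1.26-fold, with SDs of 0.09 and 0.07. Id3 no longer passed once slide column entered the fit as a block (adjusted p = 0.0705) or the filter on background was dropped (adjusted p = 0.0800).

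Smad6, the inhibitory SMAD that acts mainly on BMP receptors, did not pass. Its log2 levels were 1.75, 0.89, 1.06 and 1.49 in controls 1, 3, 6 and 8 and 2.10, 1.96, 1.67 and 1.69 in mimic samples 2, 4, 5 and 7. Control 1 lay above mimic samples 5 and 7. The log2 fold change was 0.56 (SE 0.20, adjusted p = 0.0581, 95% interval 0.11 to 1.01). It passed without control 1 (0.71, adjusted p = 0.0224) and with array weights (0.54, adjusted p = 0.0439). It also passed with a trended, robust variance (adjusted p = 0.0422) and with only genes above background on all 8 arrays (adjusted p = 0.0461). In the other 17 of 21 alternatives it did not pass, as with no filter on background (adjusted p = 0.156). Leaving out 1 sample at a time gave 0.42 to 0.71 (adjusted p = 0.0224 to 0.131).

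**Figure D2:**
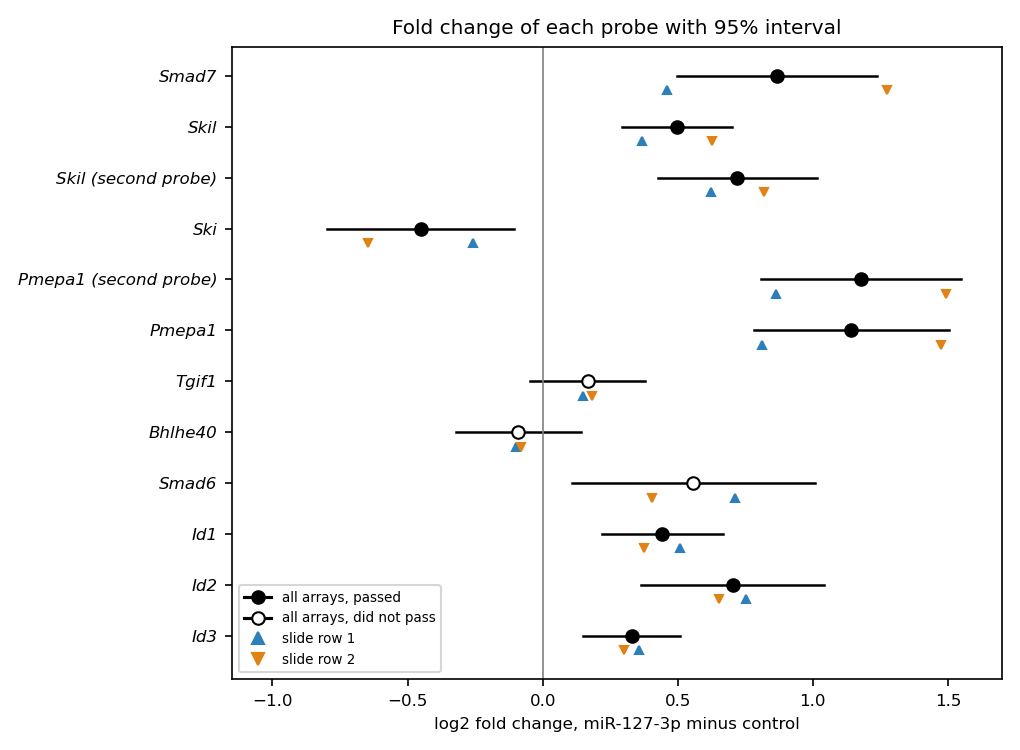
Log2 fold change of each of the 12 probes (x axis, mimic minus control) with its 95% interval from limma, filled where it passed the test, and the values within slide row 1 and slide row 2 below it. Smad7 and Pmepa1 lie further right in row 2 (1.28 and 1.47) than in row 1 (0.46 and 0.81), while for Smad6, Id1, Id2 and Id3 row 1 gives the larger value.

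Whether relatives within the set responded differently was tested on the log2 difference of 2 genes within each array, for 5 pairs (exact permutation test, two-sided, 70 assignments, Benjamini-Hochberg over the 5). The smallest p this design can give is 0.0286. The fold change of Ski was 0.95 below that of Skil on the log2 scale (difference -0.95, SE 0.20, exact p = 0.0286, adjusted p = 0.0952), with no overlap between the groups. With normexp background correction that difference was -0.54, and Ski was well above background on only 1 of 4 mimic arrays, so its size is uncertain. Id1 stood 0.26 below Id2 (-0.26, SE 0.09, exact p = 0.0571, adjusted p = 0.0952) and Id2 0.37 above Id3 (SE 0.16, exact p = 0.0571, adjusted p = 0.0952). For Id1 against Id3 the difference was 0.11 (SE 0.09) and for Smad6 against Smad7 it was -0.31 (SE 0.34), each with an exact p = 0.371 and an adjusted p = 0.371. None of the 5 pairs passed after adjustment. At n = 4 per group a pair could pass only if at least 3 of the 5 reached the smallest p, so the adjusted values say little for or against a difference.

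Within the groups, Smad7 and Pmepa1 ordered the samples differently from Smad6, Id1 and Id2. Among controls, Smad7 and Pmepa1 were highest in sample 3, then in samples 1, 6 and 8. Smad6, Id1 and Id2 shared another order, with sample 1 highest, then 8, then 6, and sample 3 lowest. Control 3 thus stood 0.34 above its group mean for Smad7 and 0.31 above it for Pmepa1, but had deviations of -0.41 for Smad6, -0.15 for Id1 and -0.31 for Id2. Among mimic samples, sample 5 was highest for Smad7 and Pmepa1 (0.24 above the mean for each) and lowest for Smad6, Id1 and Id2 (deviations of -0.19, -0.09 and -0.19). Skil (highest in control 1 and mimic sample 7) and Id3 (highest in control 6 and mimic sample 4) followed neither order throughout, nor did Tgif1 (highest in control 8 and mimic sample 7) and Bhlhe40 (highest in control 6 and mimic sample 7). Ski, a TGF-beta feedback gene by its grouping, was highest in control 1 and lowest in control 3, and had the same order as Smad6 among mimic samples, so the orders did not separate the TGF-beta from the BMP genes. These orders rest on 4 samples per group and were noticed in the data, with no test.

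**Figure D3:**
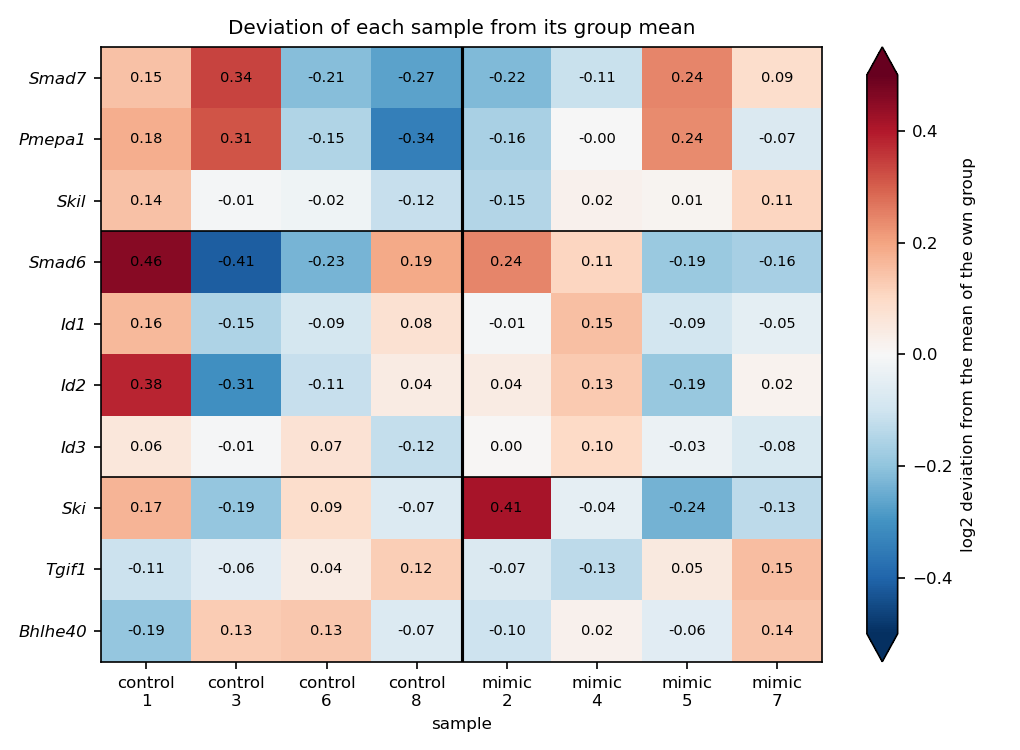
Deviation of each sample (columns, controls left and mimic samples right of the heavy line) from the mean of its own group, in log2 units, for each gene (rows). Control 3 is red for Smad7 and Pmepa1 (0.34 and 0.31) and blue for Smad6, Id1 and Id2 (-0.41, -0.15 and -0.31), and mimic sample 5 shows the same contrast.

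Slide row moved with the size of the Smad7 and Pmepa1 differences. The 8 arrays shared 1 slide and 1 scan, and each of its rows held 2 arrays of each group. The labels do not say whether samples of a row shared anything else. The log2 fold change of Smad7 was larger in row 2 by 0.82 (SE 0.18) and that of Pmepa1 by 0.66 (SE 0.22). In limma's interaction test, run after the data had been seen, these had unadjusted p = 0.00294 and 0.0202, and an adjusted p = 0.787 each. Of all 17093 genes, 0 passed that interaction test after adjustment and 883 (5.17%) had an unadjusted p under 0.05. For Id1, Id2 and Id3 the rows differed by -0.13, -0.10 and -0.06 (SE 0.21, 0.32 and 0.17). With row as a block, 6 of the 10 genes remained higher and 0 lower.

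Upstream of these brakes, the ligand and receptor genes of the TGF-beta and activin arm moved both ways. Of 10 tested, 3 rose and 3 fell. For this and every gene list below, the shares over all genes were 15.9% higher and 18.3% lower. The ligand gene Tgfb1 rose by 0.89 (SE 0.10, adjusted p = 0.000403), from 1.98 to 2.40 in controls to 2.98 to 3.13 with the mimic. Inhba and Inhbb, which encode the subunits of activins, rose by 1.12 (SE 0.23) and 0.94 (SE 0.09). Acvr2b, an activin receptor gene, fell by 0.89 (SE 0.09) with an adjusted p = 0.000160. Tgfbr2, the ligand-binding receptor of TGF-beta, had -0.57 (adjusted p = 0.0200) and lost its call without mimic sample 4 or 7 or control 8 (adjusted p = 0.0534 to 0.0574). It also lost its call with slide column as blocking factor (adjusted p = 0.0540), and its other probe, at -0.14, did not pass. Tgfb2 had -0.78 (adjusted p = 0.0368) and lost its call without control 1 or 3 or without mimic sample 2, 4 or 7 (adjusted p = 0.0771 to 0.0885) and with slide row as a block (adjusted p = 0.0539). Its other probe, at -1.23, also passed. Tgfb3 (-0.33, adjusted p = 0.231), Tgfbr1 (0.15, adjusted p = 0.473) and Tgfbr3 (0.38, adjusted p = 0.251) did not pass. Acvr2a (-0.43, adjusted p = 0.0700) did not pass either, and Acvr1b was below the filter. Without control 3 Acvr2a passed (adjusted p = 0.0418), and without mimic sample 5 Tgfb3 did (adjusted p = 0.0447).

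The tested BMP receptor genes leaned upward while the ligand genes gave little signal. Of 8 tested BMP ligand and receptor genes 4 rose and 0 fell, against 15.9% and 18.3% of all genes. All 4 were receptor genes. Acvrl1, which encodes the receptor ALK1, rose by 1.24 (SE 0.14, adjusted p = 0.000371), from 1.22 to 1.60 in controls to 2.33 to 2.85 with the mimic. Eng, the gene of its co-receptor endoglin, rose by 0.48 (SE 0.09), Bmpr1b by 0.68 (SE 0.17) and Bmpr2 by 0.46 (SE 0.11). With slide column as blocking factor Bmpr1b just missed the threshold (adjusted p = 0.0510). Bmp2, Bmp5, Bmp7, Gdf6 and Gdf10 were below the filter on background, and Bmp4 (0.05, adjusted p = 0.875) and Bmp6 (-0.30, adjusted p = 0.443) did not pass. Bmp6 passed without control 3 (adjusted p = 0.0391). The receptor genes Bmpr1a (-0.10, adjusted p = 0.586) and Acvr1 (0.24, adjusted p = 0.0888) did not pass.

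Of 8 tested genes for secreted and membrane antagonists, 6 rose and 0 fell, with a median of 0.69. Fst, the gene of follistatin, which binds activins, rose by 1.43 (SE 0.13, adjusted p = 9.95e-05). Nbl1 (0.92), Bmper (0.86), Fstl3 (0.79) and Grem1 (0.59) were also among those that rose; the GREM1 and NBL1 proteins bind BMPs. Nog, the gene of noggin, had -0.28 (adjusted p = 0.204) and Twsg1 had -0.04 (adjusted p = 0.772). Bambi, a decoy receptor gene and BMP target, was below the filter, as were Chrd, Chrdl1 and Sostdc1.

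Of the 6 genes for the receptor SMADs and Smad4, 3 fell and 1 rose. Smad5, of the BMP arm, fell by 0.43 (SE 0.09) with an adjusted p = 0.00840, and Smad4, the common partner, by 0.38 with an adjusted p = 0.0278. The other probe of Smad5, at -0.30, did not pass. Smad2 had -0.32 (adjusted p = 0.0362), while Smad1 (-0.42, adjusted p = 0.111) and Smad3 (-0.02, adjusted p = 0.897) did not pass. Smad9, a BMP SMAD whose gene is itself BMP-induced, rose by 0.76 (SE 0.19, adjusted p = 0.0170) at a low signal, well above background on 3 of 4 control arrays. The call of Smad4 was lost without control 1 or 8 or mimic sample 4 or 7 (adjusted p = 0.0589 to 0.0794), that of Smad2 without control 1, 3 or 8 or mimic sample 4 or 7 (adjusted p = 0.0508 to 0.0918) or with slide row or column as blocking factor (adjusted p = 0.0511 and 0.0920). The other probe of Smad4, at -0.29, passed. Smad1 passed without mimic sample 5 (adjusted p = 0.0131).

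Of 12 tested SMAD ligases, phosphatases and cofactors, 0 rose and 3 fell, against 15.9% and 18.3% of all genes. The ubiquitin ligase genes Smurf1 (0.11, adjusted p = 0.751) and Smurf2 (-0.06, adjusted p = 0.631), whose products SMAD7 brings to the receptor, did not pass. The corepressor gene Sin3a fell by 0.40 (SE 0.08) with an adjusted p = 0.00784. Usp15 (-0.31, adjusted p = 0.0453) and Zeb2 (-0.30, adjusted p = 0.0459) were close to the threshold, and each lost its call on the removal of any 1 of 6 samples (controls 1, 3 and 8 and mimic samples 4, 5 and 7 for Usp15, with adjusted p = 0.0575 to 0.117, and controls 1, 6 and 8 and mimic samples 2, 4 and 5 for Zeb2, with adjusted p = 0.0501 to 0.113). With slide column as blocking factor neither passed (adjusted p = 0.107 and 0.103), nor did Zeb2 with slide row as one (adjusted p = 0.0602). Neither Usp15 nor Zeb2 passed with quantile scaling (adjusted p = 0.0506 and 0.0875) or with no filter on background (adjusted p = 0.167 and 0.170). The other probe of Zeb2, at -0.66, passed.

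Other genes known to be induced by TGF-beta did not move as a block. Of 12 tested, 5 rose and 2 fell, with a median of 0.32. Tsc22d1 and Ccn2 rose by 1.45 and 0.61 (SE 0.13 for each). Ltbp2 and Snai1 rose by 1.68 and 0.43, while Tgfbi (-2.06, SE 0.34) and Snai2 (-0.59, SE 0.15) fell. Snai1 did not pass with slide column as blocking factor (adjusted p = 0.0515). Klf10, an early TGF-beta gene that curbs Smad7, had -0.01 (SE 0.10, adjusted p = 0.951), and Junb, another early target, 0.68 (SE 0.43, adjusted p = 0.258).

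Of 9 other BMP-induced genes tested, 4 rose and 0 fell, with a median of 0.41. Id4, the remaining member of the Id family, rose by 0.82 (SE 0.19, adjusted p = 0.0105), from log2 levels of 2.56, 2.47, 2.28 and 3.04 in controls 1, 3, 6 and 8 to 3.59, 3.22, 3.70 and 3.14 in mimic samples 2, 4, 5 and 7. All 4 Id genes were thus higher without overlap, as were 15.1% of all genes. The nearest Id4 samples of the 2 groups were control 8 (3.04) and mimic sample 7 (3.14). Atoh8, a helix-loop-helix gene that follows BMP SMADs, rose by 0.54 (SE 0.12, adjusted p = 0.00898), Msx2 by 0.84 (adjusted p = 0.0303) and Tnfrsf11b, the gene of osteoprotegerin, by 0.64 (adjusted p = 0.0215). Msx2 lost its call without control 1 or 8 or mimic sample 4, 5 or 7 (adjusted p = 0.0547 to 0.0808) and Tnfrsf11b without control 1 or 6 (adjusted p = 0.0517 and 0.0555). Neither passed with slide column as blocking factor (adjusted p = 0.0761 and 0.0688). Hey1 had -0.74 (SE 0.35, adjusted p = 0.135), Hes1 0.41 (adjusted p = 0.289), Msx1 0.12 (adjusted p = 0.786), Dlx3 0.20 (adjusted p = 0.0941) and Runx2 0.34 (adjusted p = 0.236).

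**Figure D4:**
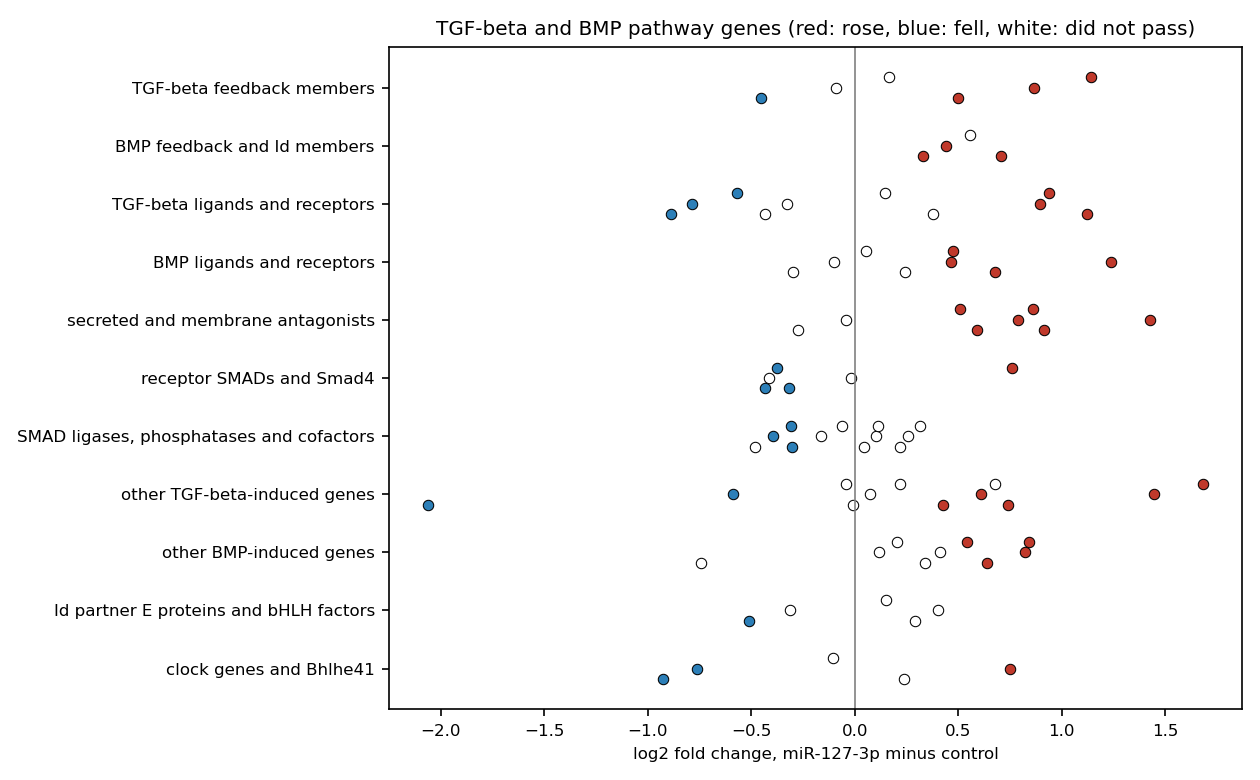
Log2 fold change (x axis, mimic minus control) of every tested gene in each list (rows), red where it rose, blue where it fell and white where it did not pass; the height of a point within its row carries no value. The antagonists have 6 red points and no blue one, and the receptor SMADs with Smad4 have 3 blue points and 1 red.

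The cultures carried their labelled identity: all 10 fibroblast markers were tested, and Col1a1, Vim and Thy1 were well above background on all arrays. Of those 10 markers 1 rose (Dcn) and 2 fell (Col3a1 and Pdgfra), against 15.9% and 18.3% of all genes. The number of probes well above background ran from 20756 to 23472 over the arrays, and 0 spots were saturated. The genes of dividing cells moved strongly beside the members. All 6 tested (Mki67, Top2a, Ccnb1, Cdk1, Birc5 and Plk1) fell, with log2 fold changes of -1.82 to -2.29 and a summed level of 172 to 202 in controls and 36.9 to 46.8 with the mimic (linear signal over each array's 75th percentile). Markers of macrophages and other leukocytes rose in 8 of 9 cases tested and fell in 0, with a median log2 fold change of 1.18. Their summed level was 36.1 to 45.3 in controls and 63.9 to 74.9 with the mimic, and Ptprc was below the filter. That sum rests mostly on Itgam, the brightest (mean log2 level 4.93 in controls), which rose by 0.51 with overlapping groups. Of the endothelial markers, of interest because Smad6, Id1, Acvrl1 and Eng are well expressed in vessels, 3 of 7 were tested and 0 rose or fell (summed level 15.5 to 18.9 in controls and 17.6 to 20.4 with the mimic), while Cdh5, Tek, Emcn and Tie1 were below the filter. Of the tested keratinocyte markers 1 of 5 rose and of the melanocyte and Schwann cell markers 2 of 6, where 15.9% of all genes rose. Among the pericyte, skeletal muscle and adipocyte markers (3, 2 and 6 tested) 0 rose or fell. The part of these shifts in the results above was not tested.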

How the data were processed

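The measurements were 1-colour (Cy3) Agilent arrays of 8 samples, 4 per group, grouped by sample title; the treatment label of samples 3 and 6 names both oligonucleotides, and their titles name the control. Per the file headers, each spot's intensity comes from Feature Extraction 11.5.1.1 (Agilent), background-subtracted and detrended within its array. A deposited value table holds log2 values, each equal to the log2 of that intensity less a constant for its array; its column medians were -3.78, -3.68, -3.60, -3.69, -3.68, -3.62, -3.60 and -3.67 for samples 1 to 8. It is log2-scaled to each array's 75th percentile and not centred by gene, and served as an alternative. GeneSpring 14.9.1 is named in the series' design text.

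Control and outlier spots were left out, spots of a probe were averaged on the log2 scale, and each array's 75th percentile was subtracted. Probe accessions were matched to symbols in a RefSeq table of GRCm38.p6 (28331 of 55681 probes), used for names alone. A probe was tested if well above background on at least 4 of 8 arrays, and a gene was represented by its brightest probe. The 2 groups were set against each other in limma 3.58.1 under R 4.3.3 (two-sided, Benjamini-Hochberg over all 17093 genes, threshold 0.05); SE is that of the fitted log2 fold change. Further probes of a gene come from a like fit over all 21964 tested probes. The fit was tested on simulated data. The number of arrays limits the precision.

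The members and gene lists were chosen with earlier results of these data known. All member probes are reported; of each pathway list, the 4 genes with the smallest p, and every tested gene of lists with at most 10, were to be named, and others named were chosen after their values were seen. Some listed genes are counted but not reported here by name. The alternatives were normexp on the median spot signal (offset 50), quantile and median scaling, the value table, 2 other filters, the mean of probes, slide row and column, array weights, a trended robust variance, and each sample left out. The row interaction was added after seeing the data.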

Additional observations from a re-analysis of the deposited data

How the results depend on the processing

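Over the 21 alternatives (20 for Ski), no member changed the sign of its log2 fold change. Without any 1 sample, 6 to 7 members were higher and 0 to 1 lower, of 6 and 1. The 1 lower member, Ski, was not called (0 lower) with normexp, no filter on background, above background on all 8 arrays (where Ski was not tested and the TGF-beta feedback median became 0.50), slide row or slide column as a block, a trended robust variance, or within either slide row. Within slide row 1 or 2 alone, with 2 arrays per group, 1 and 2 members and 19 and 20 of the other pathway genes passed. Of all genes of the array, 768 and 685 were higher and 991 and 926 lower. The main fit had 6 members higher and 1 lower, 44 other pathway genes, and 2717 higher and 3134 lower genes. Without the filter 1644 genes were higher and 2013 lower, and with slide column as a block 1780 were higher. Each fit within a row had fewer arrays, and the fit without the filter tested more genes. The slide column fit used all 8 arrays and the same 17093 genes. The causes of these changes were not tested. The Smad6 against Smad7 difference ranged from -0.87 to 0.25 and changed sign in 1 of 19 alternatives. By sample number, no paired analysis was possible because the groups share none; slide column, with 1 array of each group, served as a block. Dim signal limits Ski, Smad9 and Bmp6. No member's samples stood apart in the 24 sets of 4 checked (12 probes, 2 groups; gap over range above 0.829).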

Other observations

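The partners that Id proteins bind were measured beside them. Of 5 tested E protein and mesenchymal helix-loop-helix genes, 0 rose and 1 fell: Tcf3, which encodes E12 and E47, fell by 0.51 (SE 0.10; limma, adjusted p = 0.00546), with log2 levels of 2.24 to 2.54 in controls and 1.76 to 2.07 with the mimic. Its other probe gave -0.48. Tcf12 (-0.31, adjusted p = 0.115), Tcf4 (0.15, adjusted p = 0.532), Twist1 (0.29, adjusted p = 0.332) and Twist2 (0.40, adjusted p = 0.0960) did not pass, although Twist2 did without control 6 (adjusted p = 0.0468). A second probe of Tcf4 had the other sign, -0.36. Tcf21 was below the filter on background. So all 4 Id genes were higher and the Tcf3 transcript lower in the same samples.

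Bhlhe40 is also a clock repressor, and other clock genes were listed for that reason. Arntl, which encodes the activator BMAL1, rose by 0.75 (SE 0.07, adjusted p = 0.000164), with log2 levels of 2.26 to 2.36 in controls and 2.97 to 3.12 with the mimic. Clock, the gene of its partner, had -0.93 (SE 0.20, adjusted p = 0.00780), and Dbp, an output gene, -0.76 (adjusted p = 0.0468). The call of Dbp was lost without control 1, 3 or 8 or mimic sample 4, 5 or 7 (adjusted p = 0.0800 to 0.111) and with slide row or column as blocking factor (adjusted p = 0.0564 and 0.105). It was also lost with quantile scaling (adjusted p = 0.0586), the mean of probes (adjusted p = 0.0544) and no filter on background (adjusted p = 0.124). The other probe of Dbp, at -0.73, did not pass. Per1 (0.24, adjusted p = 0.164) and Cry2 (-0.11, adjusted p = 0.570) did not pass, and Bhlhe41, Per2, Per3, Cry1 and Nr1d1 were below the filter on background.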
